A study of Mus musculus with 20 samples.

Results

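The 32 genes described here are known markers and regulators of long-term haematopoietic stem cells (LT-HSC), cells of the bone marrow able to rebuild the blood system over a lifetime. They were taken by symbol from a fixed list of names, and all 32 were found among the 49568 gene symbols of the count tables. The rule used no measured value, though the members were chosen with earlier results of these data known. RNA was sequenced from LT-HSC and from multipotent progenitors (MPP), their proliferative progeny with little long-term repopulating capacity, both sorted by flow cytometry from mouse bone marrow. The 4 groups of 5 libraries were Ahr-KO MPP, WT MPP, Ahr-KO LT-HSC and WT LT-HSC. Ahr encodes the aryl hydrocarbon receptor, a ligand-activated transcription factor, and the series asks which of its gene targets bear on stem cell function and proliferation. Ahr-KO mice were labelled AHR KO and WT mice C57BL/6. The strain entry of every library reads C57BL/6, all mice were 8 to 12 weeks old, and none was treated. The labels give neither the knockout allele, nor the cells in which it is deleted, nor the surface markers of the sort, and 1 protocol text speaks of dendritic cells in 3 samples per group, which does not match the 20 libraries. Nothing says that libraries of a group came from separate animals, so the p-values below measure the spread between these libraries, which may be in part technical.

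LT-HSC are mostly quiescent and sit in a bone marrow niche. They carry surface proteins that they share with blood vessel cells, such as the protein C receptor and the angiopoietin receptor Tek, and depend on transcription factors such as Mecom, Prdm16 and Hlf for self-renewal. As LT-HSC give rise to MPP, these genes are known to be turned down while genes of proliferation and of lymphoid and myeloid priming are turned up.

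Libraries held between 13712668 and 21622653 counts. Levels are given in CPM (counts scaled by TMM-adjusted library totals to a common total), in the order of the replicate numbers (1 to 5 in both MPP groups; 1, 2, 3, 4 and 7 in Ahr-KO LT-HSC; 1, 4, 5, 6 and 8 in WT LT-HSC). Ahr itself did not separate the genotypes. It ranged from 18.5 to 29.7 CPM in Ahr-KO LT-HSC, against 20.8 to 36.6 CPM in WT LT-HSC, and from 9.80 to 19.2 CPM in Ahr-KO MPP, against 5.80 to 14.2 CPM in WT MPP (log2 fold changes -0.15 ± 0.18 and 0.69 ± 0.27, adjusted p 0.861 and 0.663, edgeR). The allele is not stated, so counts over the whole gene do not check the genotype labels, which are used below as deposited. In 1 library, WT LT-HSC 1, log levels correlated with those of the other WT LT-HSC libraries at only 0.928 to 0.932 (Pearson's r across genes, which are not independent replicates), against at least 0.964 for every other pair within a group. Its mitochondrial share was 0.386%, against 0.778% to 1.65% in the other 19 libraries. Ahr-KO LT-HSC 2 and 3 carried more RNA of mature blood cells: a neutrophil marker list of 7 genes summed to 891 and 1335 CPM in them, against 7.92 to 13.0 CPM in the other 3 Ahr-KO LT-HSC libraries and 6.14 to 89.1 CPM in WT LT-HSC. In the same libraries 2 and 3, an erythroid list of 5 genes summed to 1459 and 1666 CPM, against 72.9 to 220.2 CPM in the other 3 Ahr-KO LT-HSC libraries and 208 to 961 CPM in WT LT-HSC. A stromal list of 6 genes summed to 66.7 CPM in library 2 and 3726 CPM in library 3, against 19.8 to 37.9 CPM and 11.6 to 82.3 CPM in those groups. Where leaving out these 3 libraries changed the call of a member, or a member's genotype value named below by over 1.5 times, the value without them is given. The tests of Ahr and of genes outside the members, including all marker lists, were not repeated without these 3 libraries. Their dependence on them was not tested.

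The populations carried their labels in the markers. Flt3, the cytokine receptor that defines much of the MPP pool, was higher in MPP, with a log2 fold change over LT-HSC of 2.74 ± 0.16 in Ahr-KO and 3.07 ± 0.17 in WT (SE, n = 5 libraries per group; adjusted p 1.46e-09 and 3.61e-10, edgeR quasi-likelihood test). Of 16 MPP marker genes, 11 were called higher in MPP in Ahr-KO and 14 in WT. Since several of the 32 genes are best known from endothelium, endothelial markers were measured too. Of the 13 genes of that list, Lyve1, Sox17, Ptprb and Cldn5 did not exceed 0.303, 0.198, 1.56 and 2.82 CPM in any library, and Cdh5, the VE-cadherin gene, which is one of the 32, did not exceed 1.53 CPM. Others were present. Kdr, a receptor of vascular growth factors, ranged from 8.24 to 19.4 CPM in Ahr-KO LT-HSC and from 3.38 to 12.4 CPM in WT LT-HSC, and did not exceed 3.89 CPM in MPP. The vascular transcription factor gene Sox18 ranged from 7.57 to 14.7 CPM in Ahr-KO LT-HSC and from 3.87 to 6.90 CPM in WT LT-HSC, and did not exceed 2.05 CPM in MPP. Pecam1 and Emcn, which blood cells also express, reached 133 and 29.9 CPM, Plvap 13.0 CPM, Stab2 6.45 CPM and Flt4 3.84 CPM. The 13-gene endothelial list, which also holds the member Tie1, summed to 173 to 247 CPM in Ahr-KO MPP, 168 to 243 CPM in WT MPP, 316 to 386 CPM in Ahr-KO LT-HSC and 263 to 376 CPM in WT LT-HSC. Tie1 alone had 48.6 to 110.2 CPM in Ahr-KO MPP and 62.6 to 86.4 CPM in WT MPP. In Ahr-KO LT-HSC it had 179 to 246 CPM, and in WT LT-HSC 162 to 256 CPM. The sums thus rest largely on Tie1 in LT-HSC, and their difference between populations is not a measure apart from the members. The part of endothelial cells in the members' levels was not tested.

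Promoter sequence is shown for 5 members: Hlf for the motif search, and Ctnnal1, Krt18, Rarb and Procr from the genotype comparisons. The share of these 5 with a match is therefore not that of the members. The aryl hydrocarbon receptor binds DNA through a core of the letters GCGTG, which was searched on both strands (as GCGTG or its reverse complement CACGC) in the 250 bases before each annotated start. RefSeq promoters (GRCm38.p6) were matched for 26 of the 32 genes, with 33 starts in all. For some genes these starts differ from the gene coordinates given further below, which come from another annotation. The windows of Procr and Krt18 reach into those coordinates, and the window of Rarb lies within them. Esam, Clec1a, Angpt1, Tgm2, Gprc5c and Cdh5 were not matched. The core stood in 11 of the 33 windows (33.3%), belonging to 10 genes, against 28.2% of 32851 windows in the whole promoter table. A match is a description of the letters only. Each sequence below runs 5′ to 3′ on the strand of the gene, with the core in capitals. Hlf lies on the minus strand (chr11:90390918-90391167) and held 4 cores, the most of any member. Ctnnal1 (minus strand, chr4:56865212-56865461) held 1, Krt18 (plus strand, chr15:102027966-102028215) held 2, Rarb (minus strand, chr14:16575477-16575726) held 1 and Procr (plus strand, chr2:155750967-155751216) held 0. Krt8, Nupr1 and Efna1, also among the smallest p in the genotype comparisons or their difference, held 0 in every window and are not shown.
Hlf: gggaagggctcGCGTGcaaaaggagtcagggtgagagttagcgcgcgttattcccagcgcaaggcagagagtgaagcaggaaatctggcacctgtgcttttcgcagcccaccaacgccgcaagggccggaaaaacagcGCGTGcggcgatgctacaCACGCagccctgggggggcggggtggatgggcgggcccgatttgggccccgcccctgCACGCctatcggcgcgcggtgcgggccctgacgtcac
Ctnnal1: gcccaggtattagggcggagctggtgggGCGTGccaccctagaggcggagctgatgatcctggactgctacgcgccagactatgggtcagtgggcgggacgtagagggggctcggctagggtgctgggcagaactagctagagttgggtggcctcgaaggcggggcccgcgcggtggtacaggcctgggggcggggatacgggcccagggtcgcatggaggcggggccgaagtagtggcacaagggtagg
Krt18: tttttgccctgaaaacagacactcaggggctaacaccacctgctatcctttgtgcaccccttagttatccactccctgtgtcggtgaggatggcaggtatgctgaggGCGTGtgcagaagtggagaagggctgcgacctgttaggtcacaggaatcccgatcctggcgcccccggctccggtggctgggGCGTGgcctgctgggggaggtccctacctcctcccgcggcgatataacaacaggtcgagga
Rarb: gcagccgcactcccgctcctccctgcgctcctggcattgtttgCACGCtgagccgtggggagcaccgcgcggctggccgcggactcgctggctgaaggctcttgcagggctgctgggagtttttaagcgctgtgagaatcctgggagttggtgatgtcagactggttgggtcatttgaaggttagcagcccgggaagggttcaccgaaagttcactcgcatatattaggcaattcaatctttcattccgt
Procr: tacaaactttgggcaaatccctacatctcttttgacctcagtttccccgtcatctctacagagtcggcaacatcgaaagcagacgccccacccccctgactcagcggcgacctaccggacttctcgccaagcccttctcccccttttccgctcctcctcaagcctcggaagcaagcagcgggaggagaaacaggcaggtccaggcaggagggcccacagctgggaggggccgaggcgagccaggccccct

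Within LT-HSC the 32 genes spanned a wide range of levels. Per kilobase of exon, the scale on which genes can be set side by side, Txnip, an arrestin-like protein that binds thioredoxin, was highest, at 245 ± 21.9 CPM per kb in Ahr-KO LT-HSC and 195 ± 91.0 CPM per kb in WT LT-HSC (mean ± SD, n = 5). Cd81, a tetraspanin, came next, at 138 ± 9.17 CPM per kb in Ahr-KO and 176 ± 83.7 CPM per kb in WT, and then Angpt1, the angiopoietin ligand, at 117 ± 17.0 and 135 ± 21.3 CPM per kb in the same order of genotypes. In WT LT-HSC the spread of Txnip overlapped that of both Cd81 and Angpt1, so that the order of these neighbours is not fixed. Pdzk1ip1, Ltb, Cd63 and Krt18 followed in WT LT-HSC, at 95.96 to 98.9 CPM per kb, without differing there beyond their spread. In Ahr-KO LT-HSC, Ltb was lower, at 68.6 ± 8.74 CPM per kb, against 99.7 ± 7.35 for Pdzk1ip1, 95.4 ± 5.95 for Cd63 and 93.3 ± 14.2 for Krt18. The WT mean of Ltb includes WT LT-HSC 1, at 249.6 CPM where the other 4 WT libraries had 111 to 137 CPM. At the bottom stood the netrin receptor gene Neo1, at 0.860 ± 0.424 CPM per kb in Ahr-KO and 1.05 ± 0.551 CPM per kb in WT LT-HSC, then Gprc5c, an orphan receptor, at 0.190 ± 0.113 and 0.273 ± 0.184 CPM per kb in those genotypes. Cdh5 was near 0 in every group and was the only member removed by the filter on low counts in the main fits that include LT-HSC. These tested 31 members (29 to 32 in the alternatives). Over these 31, the mean of log2(CPM + 1) was 4.22 ± 0.29 in Ahr-KO MPP, 4.17 ± 0.10 in WT MPP, 6.09 ± 0.20 in Ahr-KO LT-HSC and 6.09 ± 0.24 in WT LT-HSC (SD over 5 libraries).

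**Figure D1:**
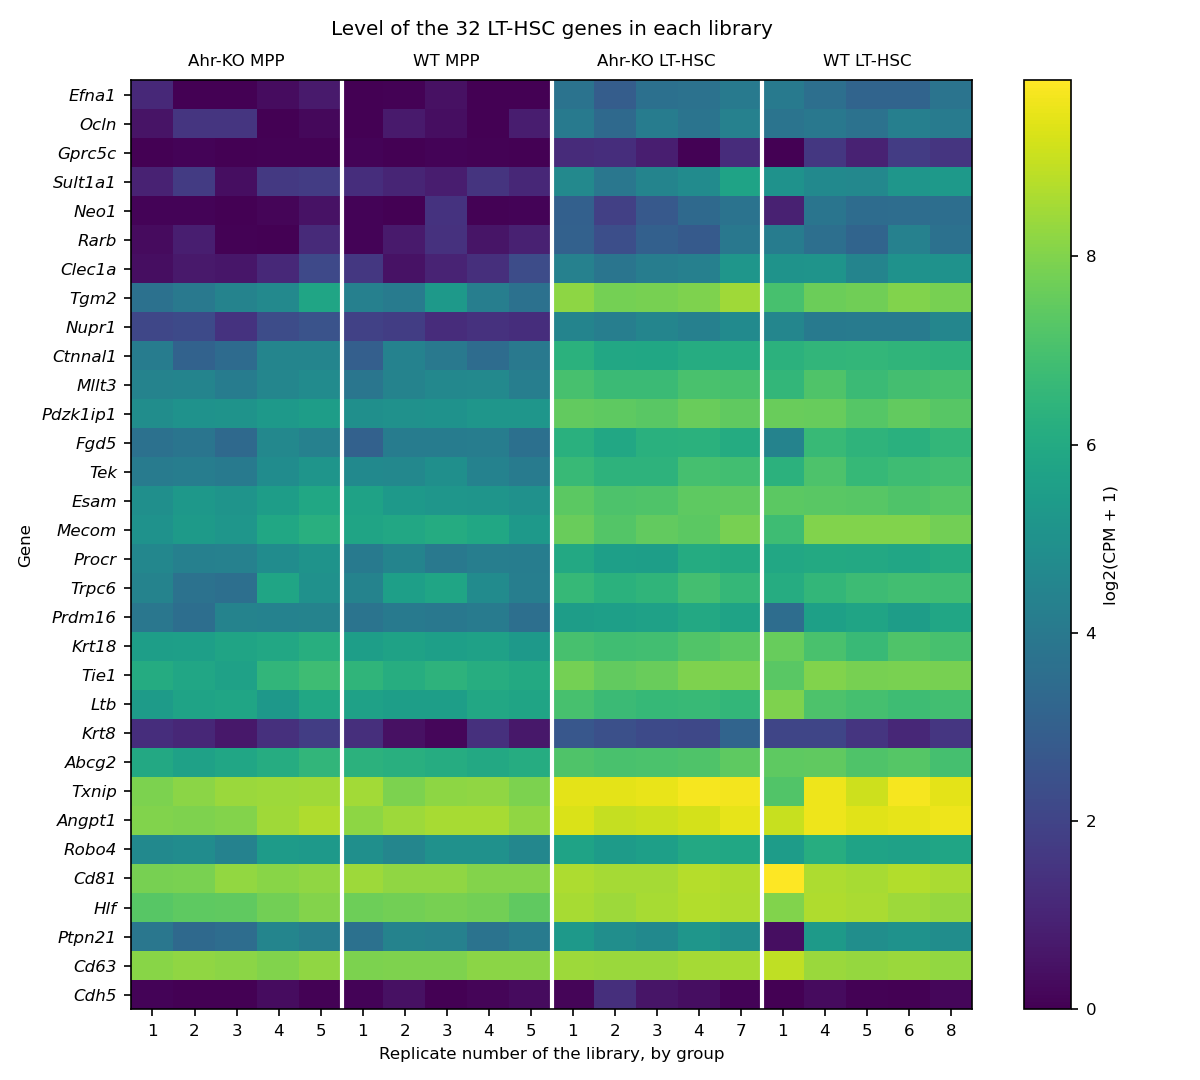
Level of each of the 32 genes (rows, ordered by the WT change between populations, with Cdh5 last) in each of the 20 libraries (columns, by group and replicate number), as log2(CPM + 1). Most rows are darker (lower) across both MPP groups than across both LT-HSC groups, and the WT LT-HSC 1 column departs from its neighbours for Ptpn21, Neo1, Prdm16, Fgd5, Txnip and Cd81.

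Nearly the whole set was lower in MPP than in LT-HSC, in both genotypes. In Ahr-KO, 30 of the 31 tested members were called lower and 0 higher, where 10.7% of 17416 tested genes were called lower and 12.5% higher. In WT, 30 of 31 were again called lower and 0 higher, against 11.3% and 11.0% of all tested genes. The median log2 fold change of the members was -1.93 in Ahr-KO and -1.98 in WT, beside 0.01 for all tested genes in WT. All 31 fold changes were negative in both genotypes. The 5 Ahr-KO MPP libraries lay wholly below the 5 Ahr-KO LT-HSC libraries for 30 members (10.4% of all tested genes), with Gprc5c the exception. In WT this held for 25 members (8.09% of all tested genes), and the ranges of Ptpn21, Krt8, Gprc5c, Neo1, Prdm16 and Txnip overlapped. A call here is an adjusted p under 0.05 in edgeR's quasi-likelihood test with Benjamini-Hochberg adjustment over all tested genes. In sorted bulk RNA, fewer cells of a type and less of an RNA per cell cannot be told apart.

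**Figure D2:**
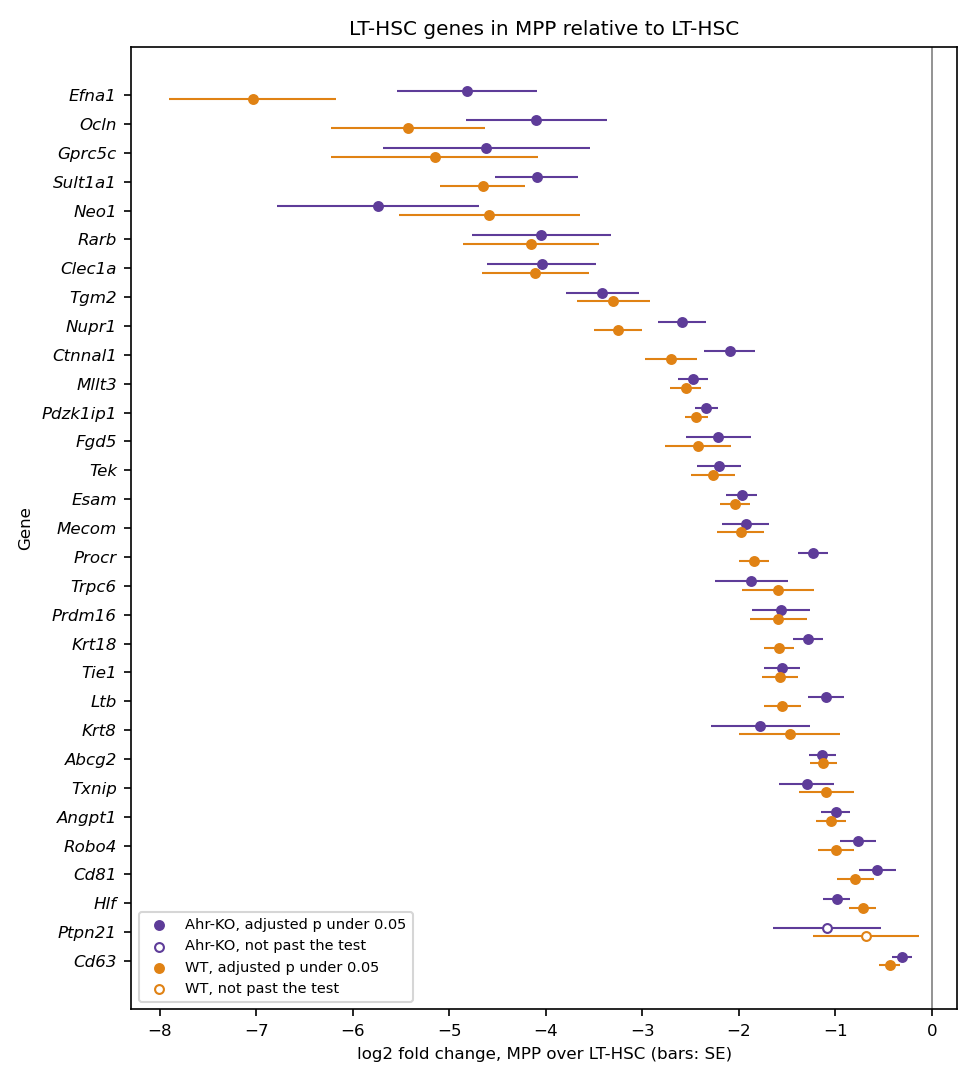
The log2 fold change of MPP over LT-HSC (horizontal axis) with its SE for each of the 31 tested genes, in Ahr-KO (purple, upper of each pair) and WT (orange, lower). All points lie left of 0, and Ptpn21 is the member with open circles (not past the test) in both genotypes.

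Ligands and receptors of the vascular type were lower in MPP by amounts that differed widely. The protein C receptor gene Procr (chr2:155751117-155755471, plus strand), whose product is used to sort LT-HSC, had 22.7, 18.7, 19.4, 26.8 and 32.4 CPM in Ahr-KO MPP, against 60.7, 46.1, 45.9, 66.9 and 62.4 CPM in Ahr-KO LT-HSC. WT libraries had 15.4, 20.8, 14.8, 17.5 and 17.0 CPM in MPP, against 59.2, 63.0, 61.6, 56.2 and 67.0 CPM in LT-HSC. The populations did not overlap in either genotype, and the log2 fold change was -1.23 ± 0.15 in Ahr-KO and -1.84 ± 0.15 in WT (SE; adjusted p 8.16e-06 and 7.82e-08). Tek, the receptor of angiopoietins (chr4:94739289-94874976), had 16.4, 17.0, 15.2, 26.9 and 34.1 CPM in Ahr-KO MPP, against 99.5, 82.0, 83.4, 123 and 118 CPM in Ahr-KO LT-HSC. In WT it had 24.4, 23.7, 28.9, 19.7 and 16.4 CPM in MPP, against 80.2, 139, 97.3, 111 and 116 CPM in LT-HSC. MPP levels of Tek were 4.62-fold lower in Ahr-KO and 4.81-fold lower in WT (log2 fold changes -2.20 ± 0.22 and -2.27 ± 0.22; adjusted p 9.17e-07 and 6.84e-07). Its relative Tie1, a receptor that pairs with Tek, had 67.2, 55.9, 48.6, 89.1 and 110.2 CPM in Ahr-KO MPP, against 223, 179, 194, 246 and 245 CPM in Ahr-KO LT-HSC. WT MPP held 86.4, 70.9, 82.9, 70.9 and 62.6 CPM of Tie1, against 162, 256, 228, 238 and 229.6 CPM in WT LT-HSC. Tie1 had log2 fold changes of -1.55 ± 0.19 in Ahr-KO and -1.57 ± 0.19 in WT (adjusted p 6.04e-06 and 5.56e-06). The ligand Angpt1 stayed high in MPP, at 247 to 412 CPM in Ahr-KO and 293 to 384 CPM in WT, against 508 to 734 CPM in Ahr-KO LT-HSC and 523 to 792 CPM in WT LT-HSC. Its log2 fold changes were -0.995 ± 0.15 in Ahr-KO and -1.04 ± 0.15 in WT (adjusted p 7.61e-05 and 4.94e-05).

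Among adhesion proteins, Esam, an immunoglobulin-type molecule of endothelial junctions (chr9:37528078-37538319), had 29.4, 37.3, 33.4, 43.6 and 57.3 CPM in Ahr-KO MPP, against 165, 136, 139.8, 171 and 178 CPM in Ahr-KO LT-HSC. WT MPP held 50.1, 38.8, 35.9, 34.5 and 30.8 CPM of it, against 165, 162, 157, 142 and 154 CPM in WT LT-HSC. Every LT-HSC library exceeded every MPP library by a wide margin, and the log2 fold changes were -1.97 ± 0.16 and -2.04 ± 0.16 in Ahr-KO and WT (adjusted p 5.51e-08 and 3.14e-08). Robo4, a Roundabout receptor with a role in holding stem cells in their niche, had smaller log2 fold changes, -0.76 ± 0.19 in Ahr-KO and -0.99 ± 0.19 in WT (adjusted p 0.00576 and 7.66e-04). Clec1a, a C-type lectin-like receptor, was close to 0 in MPP. It ranged over 0.281 to 3.49 CPM in Ahr-KO MPP, against 13.3 to 35.2 CPM in Ahr-KO LT-HSC. In WT the range was 0.399 to 3.86 CPM in MPP, against 20.9 to 33.6 CPM in LT-HSC. Its log2 fold changes were -4.04 ± 0.56 in Ahr-KO, or -4.99 without Ahr-KO MPP 5, and -4.11 ± 0.56 in WT (adjusted p with all libraries 3.15e-05 and 2.52e-05). The tight junction gene Ocln had 0 to 1.89 CPM in Ahr-KO MPP, against 9.40 to 19.2 CPM in Ahr-KO LT-HSC. Its WT range was 0 to 0.717 CPM in MPP, against 12.3 to 18.3 CPM in LT-HSC. It was called lower in both genotypes (log2 fold changes -4.10 ± 0.73 in Ahr-KO and -5.42 ± 0.80 in WT; adjusted p 3.86e-04 and 6.22e-05), and was at -4.71 in Ahr-KO without Ahr-KO MPP 3. Cdh5 was not tested: it had 0 to 0.253 CPM in Ahr-KO MPP, 0 to 0.349 CPM in WT MPP, 0.0606 to 1.53 CPM in Ahr-KO LT-HSC and 0 to 0.227 CPM in WT LT-HSC.

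Further surface and secreted members included Efna1, a ligand of Eph receptors (chr3:89271733-89281142), which was nearly absent from MPP. It had 1.19, 0, 0, 0.253 and 0.638 CPM in Ahr-KO MPP, against 12.5, 6.53, 11.6, 12.2 and 15.7 CPM in Ahr-KO LT-HSC. WT MPP held 0, 0.0498, 0.343, 0 and 0 CPM, against 15.2, 11.3, 8.05, 8.15 and 13.1 CPM in WT LT-HSC. With 3 of 5 WT MPP libraries at 0, the fitted log2 fold changes of -4.82 ± 0.72 in Ahr-KO and -7.04 ± 0.87 in WT (adjusted p 7.00e-05 and 8.60e-06) depend on the prior count. They were -5.62 without Ahr-KO MPP 1 and -9.10 without WT MPP 3, the highest library of each MPP group. Neo1, the neogenin receptor, was called lower in both genotypes, with log2 fold changes of -5.74 ± 1.05 in Ahr-KO and -4.58 ± 0.94 in WT (adjusted p 4.66e-04 and 0.00142). The WT value rested on WT MPP 3, at 1.71 CPM where the other 4 WT MPP libraries had at most 0.0682 CPM, and was -7.56 without that library. The Ahr-KO value was -6.86 without Ahr-KO MPP 5. Gprc5c did not exceed 2.37 CPM anywhere, with log2 fold changes of -4.62 ± 1.07 in Ahr-KO and -5.15 ± 1.07 in WT (adjusted p 0.00373 and 0.00158). Ltb, which encodes lymphotoxin beta (chr17:35194439-35196320), had 41.4, 51.5, 54.7, 37.9 and 58.2 CPM in Ahr-KO MPP, against 126, 105, 96.6, 101 and 92.0 CPM in Ahr-KO LT-HSC. In WT it had 49.5, 45.5, 45.3, 59.2 and 53.4 CPM in MPP, against 249.6, 137, 124, 111 and 118 CPM in LT-HSC, where WT LT-HSC 1 was the highest library. Its log2 fold changes were -1.09 ± 0.19 in Ahr-KO and -1.55 ± 0.19 in WT (adjusted p 2.59e-04 and 8.06e-06). The drug efflux pump gene Abcg2, the basis of the stem cell side population, had 60.9, 49.7, 56.6, 69.1 and 90.5 CPM in Ahr-KO MPP, against 142, 130.2, 133, 143 and 170.3 CPM in Ahr-KO LT-HSC. WT MPP held 80.3, 73.0, 68.5, 61.2 and 68.1 CPM of Abcg2, against 169.8, 176, 143, 154 and 123 CPM in WT LT-HSC. MPP levels were 2.20-fold lower in Ahr-KO and 2.18-fold lower in WT (log2 fold changes -1.14 ± 0.14 and -1.124 ± 0.14; adjusted p 8.01e-06 and 9.26e-06).

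The cation channel gene Trpc6 had log2 fold changes of -1.87 ± 0.38 in Ahr-KO and -1.60 ± 0.38 in WT (adjusted p 0.00120 and 0.00421). Its libraries were uneven, at 20.2, 12.1, 11.3, 54.9 and 31.2 CPM in Ahr-KO MPP and 20.3, 46.4, 55.2, 26.1 and 17.5 CPM in WT MPP. The tetraspanin genes Cd81 and Cd63, whose products organise membrane domains, were among the members with the smallest differences. Cd81 had 229 to 305 CPM in Ahr-KO MPP, against 369 to 431 CPM in Ahr-KO LT-HSC, a log2 fold change of -0.56 ± 0.19 (adjusted p 0.0405). In WT it had 262 to 339 CPM in MPP, against 386 to 936 CPM in LT-HSC, a log2 fold change of -0.79 ± 0.19 (adjusted p 0.00567), which was -0.45 without WT LT-HSC 1. For Cd63 the log2 fold changes were -0.31 ± 0.10 in Ahr-KO and -0.44 ± 0.10 in WT (adjusted p 0.0366 and 0.00468), the smallest of the set. The Ahr-KO call of Cd81 was lost without Ahr-KO LT-HSC 2 and 3 together (log2 fold change -0.66, adjusted p 0.0539). It was also lost without any 1 of Ahr-KO LT-HSC 1, 4 or 7 or Ahr-KO MPP 1 or 2 (-0.59 to -0.54, adjusted p 0.0555 to 0.0817). For Cd63 the Ahr-KO call was lost without Ahr-KO LT-HSC 4, Ahr-KO LT-HSC 7 or Ahr-KO MPP 4 (-0.32 to -0.29, adjusted p 0.0504 to 0.0792).

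The transcriptional regulators ran from modest to steep differences. Mllt3, a cofactor of transcription elongation and of the histone methyltransferase Dot1l (chr4:87769925-88033364), had 20.3, 21.1, 16.7, 22.3 and 25.9 CPM in Ahr-KO MPP, against 125, 104, 105, 129.8 and 126 CPM in Ahr-KO LT-HSC. WT libraries held 13.8, 20.6, 23.7, 24.0 and 17.6 CPM in MPP, against 93.1, 139.6, 105, 120.0 and 127 CPM in LT-HSC. The populations stood far apart, at log2 fold changes of -2.47 ± 0.16 in Ahr-KO and -2.55 ± 0.16 in WT (adjusted p 2.72e-09 and 1.60e-09). Mecom, a zinc finger factor needed for stem cell maintenance (chr3:29951296-30548008), had 32.03, 40.6, 35.2, 57.8 and 74.7 CPM in Ahr-KO MPP, against 196, 149, 179, 164 and 228 CPM in Ahr-KO LT-HSC. In WT, Mecom had 53.8, 58.7, 66.7, 58.5 and 39.9 CPM in MPP, against 109, 254, 255, 259 and 217 CPM in LT-HSC. The lowest LT-HSC library, WT LT-HSC 1, still exceeded every MPP library, and the log2 fold changes were -1.93 ± 0.24 and -1.98 ± 0.24 in Ahr-KO and WT (adjusted p 1.06e-05 and 8.36e-06). Its relative Prdm16 had log2 fold changes of -1.56 ± 0.30 in Ahr-KO and -1.59 ± 0.30 in WT (adjusted p 6.70e-04 and 6.43e-04). Hlf, a leucine zipper factor expressed in stem cells, kept 196 ± 41.6 CPM in Ahr-KO MPP, against 388 ± 33.7 CPM in Ahr-KO LT-HSC, and 211 ± 20.5 CPM in WT MPP, against 346 ± 63.9 CPM in WT LT-HSC (mean ± SD, n = 5). Its log2 fold changes of -0.99 ± 0.14 in Ahr-KO and -0.72 ± 0.14 in WT were among the smaller of the set (adjusted p 3.39e-05 and 7.99e-04).

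Nupr1, a small stress-induced chromatin protein (chr7:126623249-126630861), had 3.30, 3.60, 1.73, 3.84 and 4.76 CPM in Ahr-KO MPP, against 20.8, 17.7, 21.3, 18.7 and 25.5 CPM in Ahr-KO LT-HSC. In WT it had 2.73, 2.49, 1.37, 1.66 and 1.43 CPM in MPP, against 22.2, 15.2, 16.3, 16.2 and 22.4 CPM in LT-HSC. It was 6.03-fold lower in Ahr-KO MPP and 9.53-fold lower in WT MPP (log2 fold changes -2.59 ± 0.24 and -3.25 ± 0.25; adjusted p 3.61e-07 and 3.23e-08). Rarb, the retinoic acid receptor beta gene (chr14:16430839-16819156, minus strand), had 0.211, 0.793, 0.0510, 0 and 1.28 CPM in Ahr-KO MPP, against 7.31, 4.21, 7.18, 5.99 and 14.3 CPM in Ahr-KO LT-HSC. WT MPP had 0.0682, 0.648, 1.66, 0.467 and 0.883 CPM, against 16.8, 11.3, 8.10, 19.4 and 11.7 CPM in WT LT-HSC. It was close to absent from MPP in both genotypes (log2 fold changes -4.04 ± 0.72 in Ahr-KO and -4.15 ± 0.70 in WT; adjusted p 3.83e-04 and 2.55e-04), and was at -5.03 in Ahr-KO without Ahr-KO MPP 5. The library kit does not keep the strand, and 38.4% of the exonic length of Rarb overlaps genes of the opposite strand, Top2b among them, so its reads cannot be fully told from theirs. The same overlap was 21.8% for Tgm2, 19.4% for Txnip and 14.2% for Angpt1, and 5.16% or less for the other 28 members.

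Of the signalling, metabolic and cytoskeletal members, Pdzk1ip1 had the smallest p of the set in both genotypes. It encodes a small membrane protein that binds PDZ domains (chr4:115088708-115093899), and had 27.4, 32.1, 32.4, 38.8 and 44.6 CPM in Ahr-KO MPP, against 179, 171, 162, 198 and 176 CPM in Ahr-KO LT-HSC. WT libraries had 29.1, 30.8, 31.3, 35.6 and 35.4 CPM in MPP, against 194, 190.0, 154, 182 and 159 CPM in LT-HSC. The SD of Pdzk1ip1 was 19.1% of its mean in Ahr-KO MPP and 7.38% to 10.3% in the other groups. It was 5.06-fold lower in Ahr-KO MPP and 5.42-fold lower in WT MPP (log2 fold changes -2.34 ± 0.12 and -2.44 ± 0.12, adjusted p 2.21e-10 and 1.08e-10, edgeR). Sult1a1, a sulfotransferase of phenols (chr7:126672865-126676432), had 0.913, 2.31, 0.306, 2.12 and 2.36 CPM in Ahr-KO MPP, against 24.1, 14.2, 21.2, 26.2 and 51.9 CPM in Ahr-KO LT-HSC. In WT it had 1.43, 1.05, 0.743, 1.76 and 1.16 CPM in MPP, against 31.6, 25.1, 23.2, 35.1 and 40.0 CPM in LT-HSC. It was 17.2-fold lower in Ahr-KO MPP and 25.2-fold lower in WT MPP (log2 fold changes -4.10 ± 0.43 and -4.65 ± 0.44; adjusted p 1.22e-06 and 3.89e-07). Tgm2, a transglutaminase that cross-links proteins (chr2:158116402-158146436), had 11.7, 14.9, 20.3, 24.4 and 54.9 CPM in Ahr-KO MPP, against 294, 225, 229, 248 and 354 CPM in Ahr-KO LT-HSC. WT MPP had 18.6, 16.1, 39.3, 17.8 and 11.97 CPM of Tgm2, against 126, 201, 210.4, 256 and 229 CPM in WT LT-HSC. Single MPP libraries, Ahr-KO MPP 5 and WT MPP 3, stood above the rest of their groups, and the log2 fold changes were -3.41 ± 0.38 in Ahr-KO and -3.30 ± 0.38 in WT (adjusted p 2.54e-06 and 3.83e-06).

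Ctnnal1, which encodes alpha-catulin and marks LT-HSC in reporter mice (chr4:56810935-56865188), had 16.7, 7.57, 9.99, 21.5 and 21.7 CPM in Ahr-KO MPP, against 77.2, 60.2, 57.3, 67.6 and 69.1 CPM in Ahr-KO LT-HSC. WT libraries held 6.96, 19.7, 14.8, 10.4 and 14.9 CPM in MPP, against 80.9, 90.5, 93.0, 86.9 and 83.3 CPM in LT-HSC. It was lower in MPP in both genotypes (log2 fold changes -2.09 ± 0.26 in Ahr-KO and -2.70 ± 0.27 in WT; adjusted p 1.13e-05 and 7.85e-07). Fgd5, an activator of the small GTPase Cdc42 that likewise marks stem cells in reporter mice, showed log2 fold changes of -2.21 ± 0.34 in Ahr-KO and -2.42 ± 0.34 in WT (adjusted p 8.35e-05 and 3.76e-05). For Txnip they were -1.30 ± 0.29 in Ahr-KO and -1.09 ± 0.29 in WT (adjusted p 0.00250 and 0.00884). Ptpn21, a tyrosine phosphatase (chr12:98676741-98737405), missed the test in both genotypes in the fit of all 4 groups. It had 13.9, 9.44, 10.5, 21.7 and 17.8 CPM in Ahr-KO MPP, against 39.3, 28.8, 24.7, 35.4 and 28.1 CPM in Ahr-KO LT-HSC. WT MPP had 12.01, 20.2, 19.0, 12.5 and 16.4 CPM, against 0.285, 41.0, 28.2, 31.5 and 27.8 CPM in WT LT-HSC. Apart from WT LT-HSC 1, which held 6 counts of Ptpn21, every LT-HSC library was above every MPP library. The log2 fold changes were -1.09 ± 0.56 in Ahr-KO and -0.68 ± 0.55 in WT (adjusted p 0.177 and 0.428), and without WT LT-HSC 1 the WT value was -1.001 ± 0.22 (SE, 5 WT MPP and 4 WT LT-HSC libraries; adjusted p 0.00210, edgeR, where 14.7% of 17788 genes were called lower). In a fit of the Ahr-KO groups alone, which leaves out WT LT-HSC 1, the Ahr-KO value was -1.11 ± 0.22 (adjusted p 0.00275, edgeR, where 15.5% of 16206 genes were called lower). Limma voom called Ptpn21 in both genotypes (adjusted p 0.0205 in Ahr-KO and 0.0423 in WT), and DESeq2 in neither (0.183 and 0.447 in that order).

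The keratins Krt18 and Krt8, partners that form intermediate filaments in simple epithelia, differed in level. Krt18 (chr15:102028180-102032027) had 45.2, 46.6, 52.8, 58.9 and 71.2 CPM in Ahr-KO MPP, against 129, 115, 118, 143 and 165 CPM in Ahr-KO LT-HSC. In WT it had 45.2, 50.9, 46.8, 49.6 and 37.9 CPM in MPP, against 189, 131, 103, 139.6 and 127 CPM in LT-HSC. It was lower in MPP in both genotypes (log2 fold changes -1.29 ± 0.15 in Ahr-KO and -1.58 ± 0.16 in WT; adjusted p 6.41e-06 and 6.51e-07). Krt8 (chr15:101996698-102004482) had 1.48, 1.15, 0.561, 1.57 and 2.45 CPM in Ahr-KO MPP, against 5.48, 4.26, 3.67, 3.39 and 8.06 CPM in Ahr-KO LT-HSC. WT libraries had 1.501, 0.349, 0.114, 1.56 and 0.552 CPM in MPP, against 3.19, 3.13, 1.89, 1.13 and 1.94 CPM in LT-HSC, and these overlapped. Its log2 fold changes were -1.78 ± 0.51 in Ahr-KO and -1.47 ± 0.52 in WT (adjusted p 0.0155 and 0.0478), and the WT call was lost without WT LT-HSC 1 (-1.32, adjusted p 0.0707). It was also lost without any 1 of WT LT-HSC 4, 5 or 8 or WT MPP 2, 3 or 5 (-1.55 to -1.19, adjusted p 0.0585 to 0.108). Keratin genes have near-identical processed copies in the genome, so their counts are uncertain. A 4-gene epithelial list summed to 2.85 to 27.2 CPM over all libraries.

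Further genes that mark LT-HSC, and partners of the members, were counted against the shares of all tested genes given above, 10.7% called lower in Ahr-KO and 11.3% in WT. Of 23 tested further LT-HSC genes, 17 were called lower and 3 higher in Ahr-KO MPP than in Ahr-KO LT-HSC, and 17 lower and 2 higher in the WT pair. Socs2, an inhibitor of cytokine signalling, had log2 fold changes of -2.72 ± 0.12 in Ahr-KO and -2.66 ± 0.12 in WT (SE; adjusted p 2.49e-11 and 3.67e-11, edgeR). Ndn, which encodes the growth suppressor necdin, had log2 fold changes of -2.96 ± 0.16 in Ahr-KO and -3.15 ± 0.16 in WT (adjusted p 5.12e-10 and 2.08e-10). The genes called higher were Vldlr and Cxcr4 in both genotypes and Hoxa9 in Ahr-KO, named after their values were seen. Of 24 tested partners and relatives of the members, 11 were called lower and 1 higher in the Ahr-KO pair, and 9 lower and 1 higher in the WT pair. Cyp26b1, which degrades the retinoic acid that Rarb binds, had log2 fold changes of -5.37 ± 0.83 in Ahr-KO and -5.53 ± 0.84 in WT (adjusted p 9.78e-05 and 8.94e-05). Arrdc4, the arrestin relative of Txnip, had -1.43 ± 0.18 in Ahr-KO and -1.46 ± 0.18 in WT (adjusted p 1.06e-05 and 8.97e-06). The tetraspanin gene Cd9 had -0.92 ± 0.13 in Ahr-KO and -0.83 ± 0.13 in WT (adjusted p 3.85e-05 and 0.000113). The partners called higher were Cd151 in Ahr-KO and Dot1l in WT, also named after their values were seen. Of 6 proliferation genes, 3 were called higher in Ahr-KO MPP than in Ahr-KO LT-HSC, and 6 in the WT pair.

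Between genotypes within LT-HSC, no member passed the test. Of 31 tested members 0 were called, where 1 of 16065 genes was called (0.00622%). Without adjustment, 4 members and 1422 genes had p under 0.05 in edgeR. DESeq2 called 1 member and 149 genes, and limma voom 1 member and 264 genes. The log2 fold changes of the members, Ahr-KO over WT, were positive for 11 and negative for 20, with a median of -0.04 beside 0.00 for all tested genes, and 18 lay within 0.2 of 0. That median was 0.09 without Ahr-KO LT-HSC 2 and 3, with 21 positive and 10 negative. The summed level of the members in them was 4078 and 4300 CPM, against 4724 to 5225 CPM in the other 3 Ahr-KO LT-HSC libraries and 4301 to 5150 CPM in WT LT-HSC. The monocyte list of 6 genes summed to 288 and 304 CPM in them, against 22.8 to 52.1 CPM in the other Ahr-KO LT-HSC libraries and 38.2 to 61.3 CPM in WT LT-HSC, and the MPP list to 3264 and 3000 CPM, against 641 to 1195 CPM and 820 to 1866 CPM in the same groups. The part of these other cells in the members' levels was not tested.

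**Figure D3:**
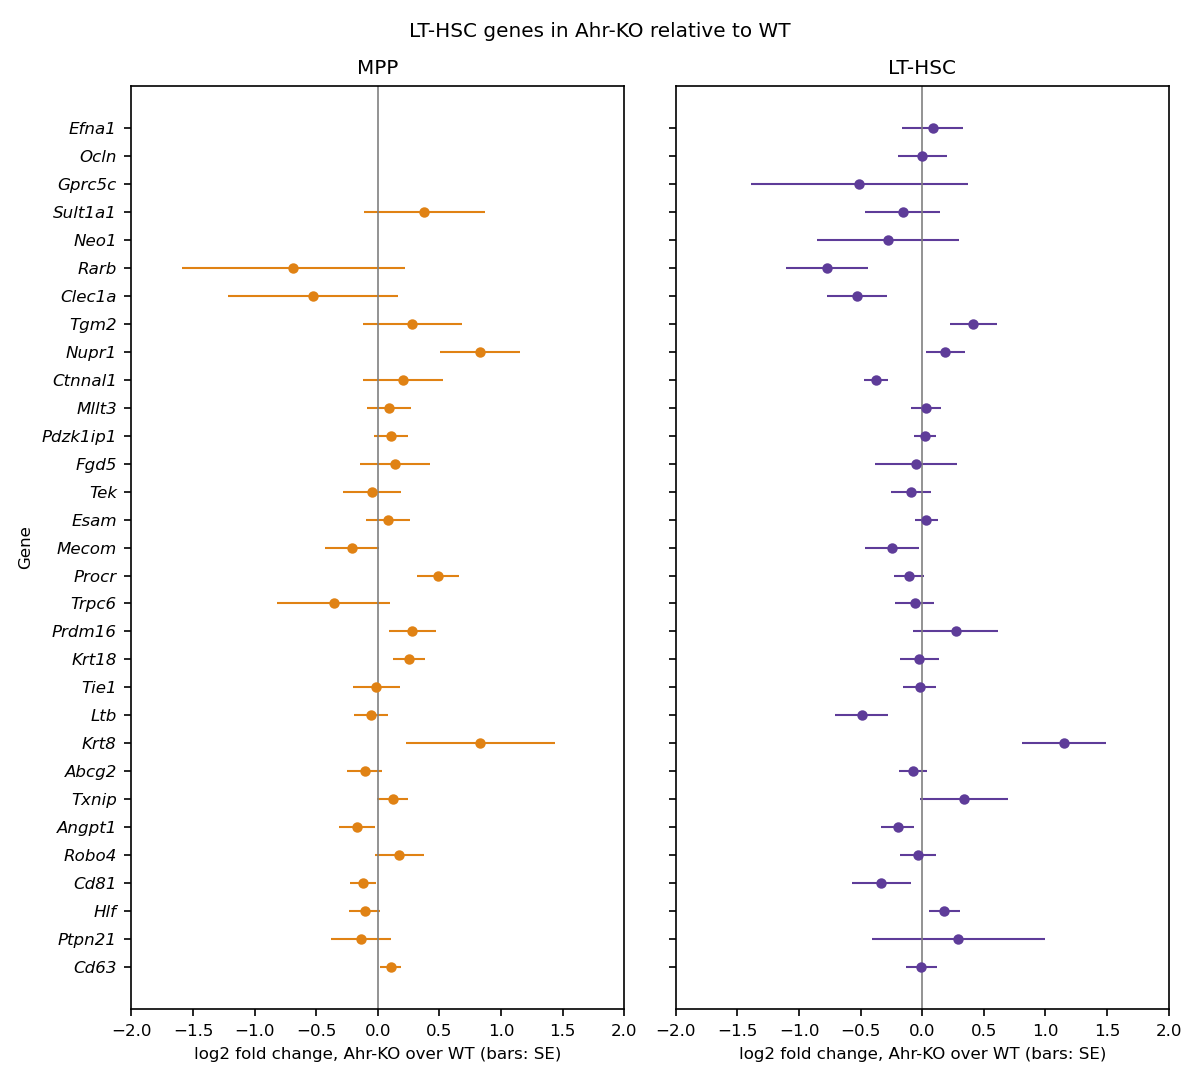
The log2 fold change of Ahr-KO over WT (horizontal axis) with its SE for each gene, in MPP (left) and LT-HSC (right). The points gather about 0 in both populations, and none passed the test; genes with no point in MPP (Efna1, Ocln, Gprc5c and Neo1) were removed by the filter on low counts.

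Ctnnal1 came closest in LT-HSC. It had 77.2, 60.2, 57.3, 67.6 and 69.1 CPM in Ahr-KO LT-HSC, against 80.9, 90.5, 93.0, 86.9 and 83.3 CPM in WT LT-HSC. Every Ahr-KO library was below every WT library, which held in the same direction for 1.41% of all tested genes. The means were 66.3 ± 7.87 CPM in Ahr-KO and 86.9 ± 4.996 CPM in WT (SD, n = 5). The fitted log2 difference was -0.38 ± 0.10 (SE, adjusted p 0.421, edgeR quasi-likelihood test). It was called by DESeq2 (-0.39, adjusted p 0.0208), by limma voom (-0.41, adjusted p 0.0352) and by edgeR without WT LT-HSC 1 (-0.40, adjusted p 0.0453, where 1.24% of 16338 genes were called). Over all alternatives its value ran from -0.45 to -0.24 and its adjusted p from 0.0208 to 0.9995. The lowest Ahr-KO values came from libraries 2 and 3, and without them the log2 fold change was -0.28 (adjusted p 0.999). In MPP the sign was opposite, at 0.21 ± 0.33 (adjusted p 0.922), and the difference between the populations was not past the test (0.61 ± 0.36, adjusted p 0.842).

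Krt8 pointed the other way, with 5.48, 4.26, 3.67, 3.39 and 8.06 CPM in Ahr-KO LT-HSC, against 3.19, 3.13, 1.89, 1.13 and 1.94 CPM in WT LT-HSC. The ranges did not overlap, as for 2.23% of all tested genes in that direction, and the log2 fold change was 1.15 ± 0.34 (adjusted p 0.460). It was at 1.30 without WT LT-HSC 1 (adjusted p 0.0762), and leaving out Ahr-KO LT-HSC 2 and 3 gave 1.33 (adjusted p 0.999). Its partner keratin Krt18 had -0.03 ± 0.16 between the same libraries (adjusted p 0.981), or 0.11 without WT LT-HSC 1 and 0.09 without Ahr-KO LT-HSC 2 and 3. Rarb averaged 7.80 ± 3.84 CPM in Ahr-KO LT-HSC and 13.5 ± 4.56 CPM in WT LT-HSC, with overlapping libraries and a log2 fold change of -0.77 ± 0.33 (adjusted p 0.5497), or -0.46 without WT LT-HSC 1 and Ahr-KO LT-HSC 2 and 3 together (adjusted p 0.561). The fourth member under an unadjusted p of 0.05 was Ltb, at -0.49 ± 0.21 (p 0.0426, adjusted p 0.551), where WT LT-HSC 1, at 249.6 CPM, was far above the other 4 WT libraries. Without it the Ltb value was -0.22 ± 0.09 (p 0.0351, adjusted p 0.228). The transcriptional regulators were not called between genotypes, which does not show that they are equal. The log2 fold changes were 0.18 ± 0.13 for Hlf, -0.24 ± 0.22 for Mecom, 0.27 ± 0.35 for Prdm16 and 0.03 ± 0.12 for Mllt3 (adjusted p 0.729, 0.793, 0.879 and 0.972 in that order, edgeR). Without WT LT-HSC 1 they were 0.09 for Hlf, -0.42 for Mecom, 0.02 for Prdm16 and -0.04 for Mllt3 (adjusted p 0.608, 0.0777, 0.931 and 0.829 in that order). Without Ahr-KO LT-HSC 2 and 3 they were 0.24, -0.15, 0.31 and 0.13 in the same order of genes (adjusted p 0.999 for each). The surface protein genes Procr and Esam had -0.11 ± 0.12 and 0.03 ± 0.09, or -0.12 and 0.05 without WT LT-HSC 1 and 0.05 and 0.14 without Ahr-KO LT-HSC 2 and 3. Of the further LT-HSC genes 0 of 23 were called, the smallest p belonging to Ly6a, the Sca-1 gene, at 0.60 ± 0.15 (adjusted p 0.409).

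In MPP the result was alike: 0 of 27 tested members were called, where 5 of 16077 genes were (0.0311%). Gprc5c, Neo1, Cdh5, Efna1 and Ocln did not pass the filter on low counts in this fit. Without adjustment, 2 members and 1065 genes had p under 0.05 in edgeR, and DESeq2 and limma voom called 0 members with 50 and 8 genes. The median log2 fold change was 0.09, with 15 positive and 12 negative. No member's groups were free of overlap, against 1.17% of all tested genes. Procr had 22.7, 18.7, 19.4, 26.8 and 32.4 CPM in Ahr-KO MPP, against 15.4, 20.8, 14.8, 17.5 and 17.0 CPM in WT MPP, with a log2 fold change of 0.49 ± 0.17 (adjusted p 0.620). Nupr1 averaged 3.45 ± 1.10 CPM in Ahr-KO MPP and 1.94 ± 0.629 CPM in WT MPP (SD, n = 5), with a log2 fold change of 0.83 ± 0.33 (adjusted p 0.663). Krt18 averaged 55.0 ± 10.6 CPM in Ahr-KO MPP and 46.1 ± 5.06 CPM in WT MPP, with a log2 fold change of 0.25 ± 0.13 (adjusted p 0.770). The Ahr-KO values of all 3 were highest in library 5, which was the highest of its group for 23 of 31 members. Their sum in it was 2437 CPM, against 1649 to 2130 CPM in the other Ahr-KO MPP libraries and 1766 to 2099 CPM in WT MPP. The 16-gene MPP list was lowest in Ahr-KO MPP 4 and 5, at 6594 and 6773 CPM, against 9640 to 14456 CPM in the other 3 Ahr-KO MPP libraries and 8470 to 12250.2 CPM in WT MPP, and its part in the members' levels was not tested. Without Ahr-KO MPP 5 the median was -0.03, Procr was at 0.36 (adjusted p 0.547), Nupr1 at 0.69 (adjusted p 0.577) and Krt18 at 0.15 (adjusted p 0.7095). Of the further LT-HSC genes 0 of 23 were called, with Gfi1b, which encodes a transcriptional repressor needed for megakaryocytic and erythroid development, at -0.51 ± 0.12 (adjusted p 0.502).

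**Figure D4:**
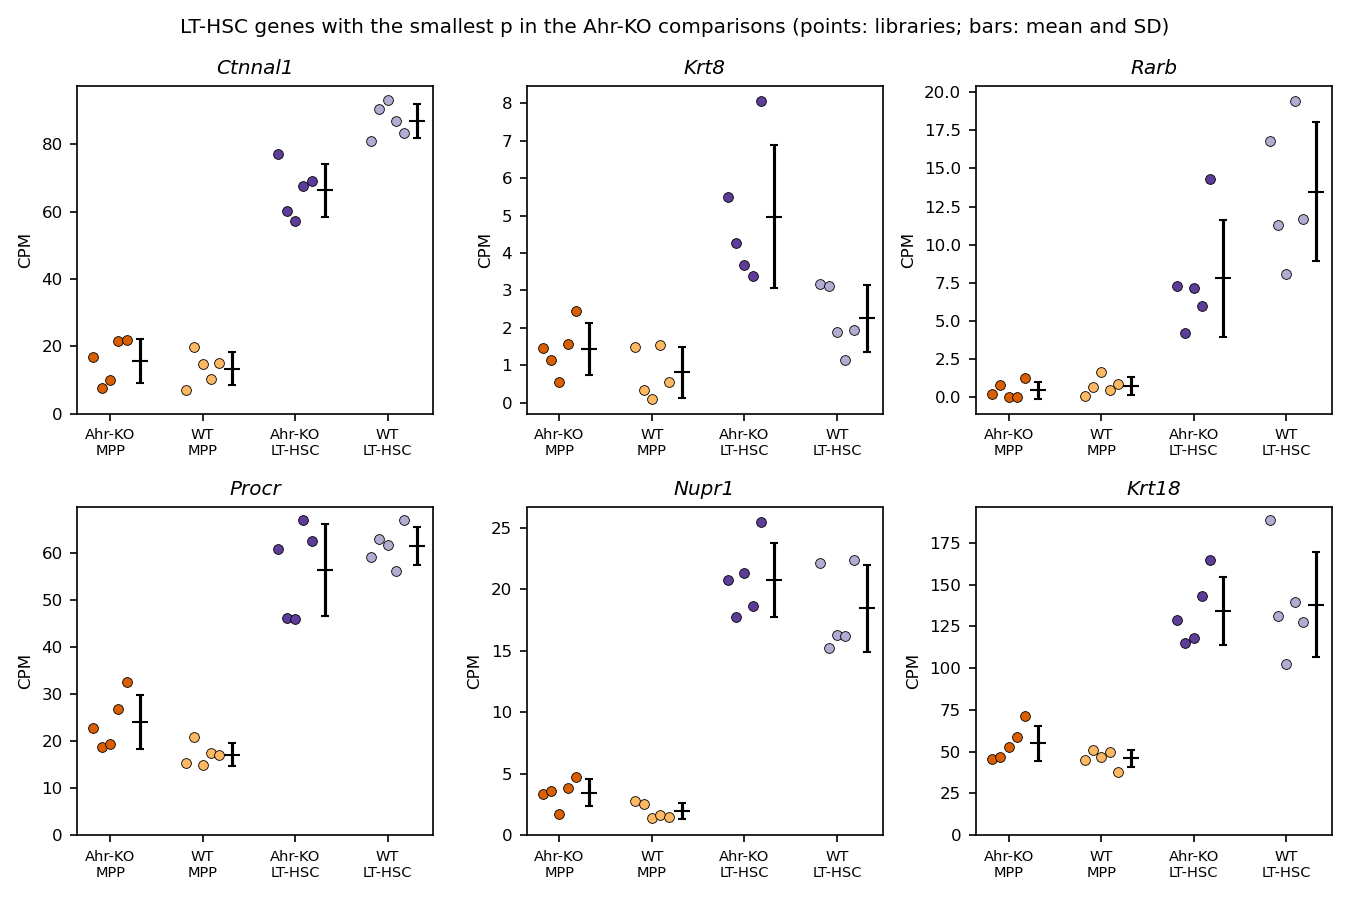
Level in CPM (vertical axes, linear and including 0) of the members with the smallest p in the comparisons of Ahr-KO with WT, by group and library (points), with the group mean and SD (bars). Ahr-KO LT-HSC libraries lie below WT LT-HSC libraries for Ctnnal1 and above them for Krt8, and all other pairs of genotypes overlap.

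The genotype effect itself was compared between MPP and LT-HSC in 1 fit of all 20 libraries. No member (0 of 31) and no gene (0 of 17416, 0%) was called by edgeR, with 1 member and 1125 genes under an unadjusted p of 0.05. DESeq2 and limma voom called 0 members, with 51 and 17 genes. The smallest p belonged to Procr, whose Ahr-KO effect was higher in MPP than in LT-HSC by 0.61 ± 0.21 on the log2 scale (adjusted p 0.598). Nupr1 followed at 0.66 ± 0.33 (adjusted p 0.784) and Efna1 at 2.22 ± 1.117 (adjusted p 0.784), the last on MPP levels that reached at most 1.19 CPM. The Efna1 value was 1.44 without Ahr-KO MPP 1 and 4.28 without WT MPP 3, and ran from 1.03 to 5.18 over all alternatives (adjusted p 0.548 to 0.99997). The median difference over the members was 0.08, and ran from -0.06 to 0.17 over the alternatives.

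Within WT LT-HSC, 1 library set much of the spread of the members. WT LT-HSC 1 was the lowest of its group for 16 of 31 members and the highest for 8. It had 20.2 CPM of Fgd5, against 76.6 to 99.7 CPM in the other 4 libraries, 10.7 CPM of Prdm16, against 44.6 to 55.9 CPM, and 145 CPM of Txnip, against 552 to 858 CPM. Cd81, at 936 CPM, was above the 386 to 421 CPM of the others, and so was Cd63, at 486 CPM, against 309 to 337 CPM. Members with more than 5 kb of exon were below the mean of the other libraries in 12 of 15 cases, with a median log2 ratio of -0.53, and members of 5 kb or less were above it in 10 of 16 cases, with a median of 0.14. Spearman's rho between the deviation and exon length was -0.62 over 31 members and -0.44 over 12038 genes, values across genes of 1 library that share its depth and composition. In the other 19 libraries, with the deviation likewise taken from the other 4 of the group, rho ran from -0.41 to 0.61 over the members and from -0.40 to 0.39 over all genes. The highest of these, 0.61 over the members and 0.39 over all genes, were those of WT LT-HSC 5, whose comparison libraries include WT LT-HSC 1. The lowest were -0.41 over the members in WT MPP 1 and -0.40 over all genes in WT MPP 5, whose comparison libraries do not include it. A trend with length was thus not confined to WT LT-HSC 1. A 6-gene proliferation list summed to 1093 CPM in it, against 735 to 843 CPM in the other WT LT-HSC libraries, a difference whose part in the members' levels was not tested.

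**Figure D5:**
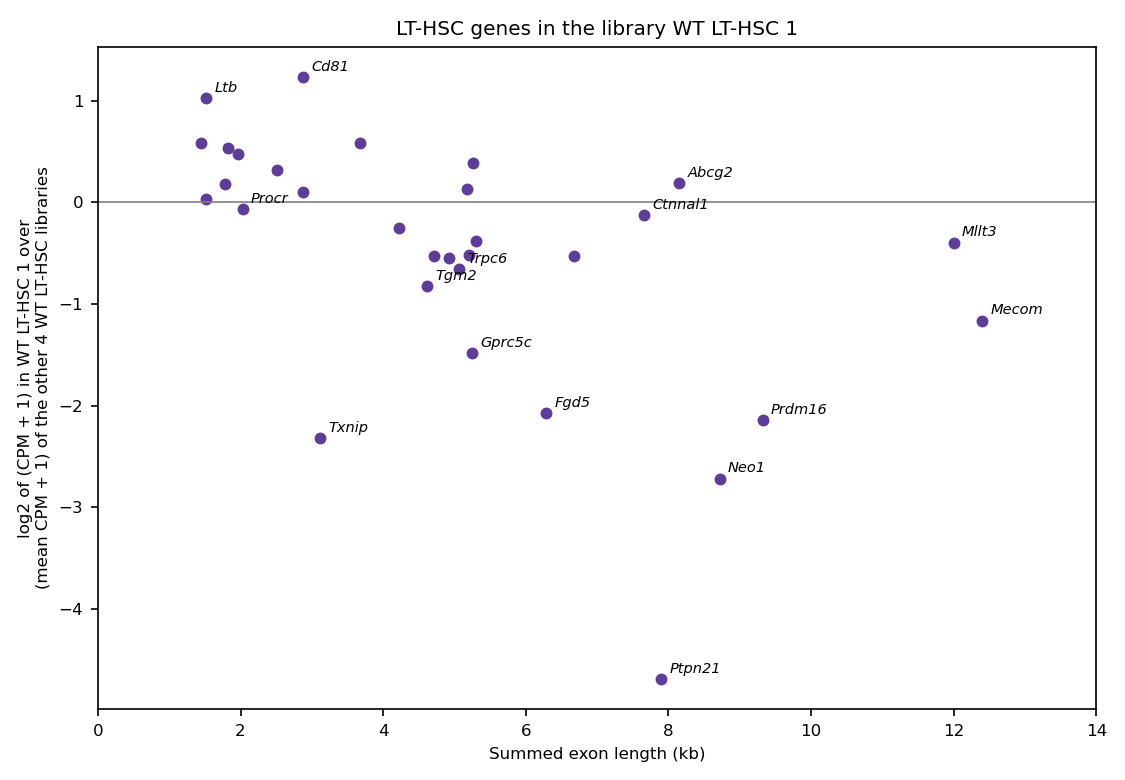
The log2 ratio of the level in WT LT-HSC 1 over the mean of the other 4 WT LT-HSC libraries (vertical axis, each level as CPM + 1) against the summed exon length in kb (horizontal axis), 1 point per member. Most members above 5 kb lie below 0, with Ptpn21 lowest, and Cd81 and Ltb lie highest among the shorter members.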

How the data were processed

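Poly(A)-selected RNA of 20 libraries, 5 per group, was sequenced with a kit that does not keep the strand, per the labels' protocols. The values used are the raw counts per gene symbol that the authors deposited, as whole numbers. The build was GRCm38.p5, and the tools listed are featureCounts of Subread 1.5.0p3, DESeq2 1.12.4, STAR 2.5.2b and Trimmomatic 0.36, per the submitters' processing notes. Tool settings and annotation: not given in the sources used here.

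Counts were tested as deposited with edgeR 4.0.16 in R 4.3.3 (filterByExpr, TMM, robust quasi-likelihood fit, two-sided F test, Benjamini-Hochberg adjustment over all genes tested). Ahr-KO and WT were compared within each population on 10 libraries. MPP and LT-HSC, and the difference between genotype effects, were compared in 1 fit of 4 groups over 20 libraries, which share 1 estimate of the spread. The SE of an edgeR log2 fold change was derived from the test, as its absolute value over the square root of F. The scripts were tested on simulated data with less spread between libraries than the real fits and no library that stood apart. That test does not give the power reached here. CPM use TMM-scaled totals, log2 levels add a pseudocount of 1 CPM, and CPM per kb use summed exon lengths of GENCODE M21 (GRCm38), which also gives the gene coordinates. Promoters are RefSeq sequences of GRCm38.p6. Alternatives were DESeq2 size factors, 2 other filters, DESeq2 1.42.0, limma 3.58.1 (voom with quality weights), other sets of libraries in the fit, a replicate block, and leaving out libraries.

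The members, lists and tests were chosen with earlier results of these data known. Values by library are shown, in each comparison of MPP with LT-HSC, for the 12 members that rank first by p among those called. In comparisons without a called member, the first 3 by p are shown. Members singled out beyond this rule (Trpc6, Ptpn21, Ltb between genotypes) were named after their values were seen. Up to 3 genes per further list are named in the same way, apart from some that are not reported here. With 13712668 to 21622653 counts per library, members below 1 CPM rest on few counts.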

Additional observations from a re-analysis of the deposited data

Results flagged for a closer look

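Each group of 5 libraries was searched for a highest or lowest library that stood apart from the other 4 by Dixon's criterion (gap over range above 0.71). Of 124 groups of values tested, 10 stood out, where chance flags about 1 in 20, or 6.2. WT LT-HSC 1 gave 6 of the 10. It was low for Mecom (109 CPM, against 217 to 259 CPM in the other 4 libraries), Neo1 (0.856 CPM, against 10.1 to 13.4 CPM) and Prdm16 (10.7 CPM, against 44.6 to 55.9 CPM). It was high for Ltb (249.6 CPM, against 111 to 137 CPM), Cd81 (936 CPM, against 386 to 421 CPM) and Cd63 (486 CPM, against 309 to 337 CPM).

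Clec1a stood out in 2 groups: Ahr-KO LT-HSC 7 was high, at 35.2 CPM, against 13.3 to 19.0 CPM in the other Ahr-KO LT-HSC libraries, and WT LT-HSC 5 was low, at 20.9 CPM, against 32.04 to 33.6 CPM in the other WT LT-HSC libraries. WT MPP 3 was high for Tgm2 (39.3 CPM, against 11.97 to 18.6 CPM) and Neo1 (1.71 CPM, against 0 to 0.0682 CPM). What sets these libraries apart was not tested.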

How the results depend on the processing

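No value changed sign under any alternative for a called member. In the comparisons of MPP with LT-HSC, 26 to 30 members were called in Ahr-KO and 25 to 31 in WT over all alternatives (28 to 30 and 29 to 30 when 1 library was left out). In LT-HSC between genotypes, 0 members were called in the stated fit, 1 with the DESeq2 Wald test and 1 with limma voom, and 0 to 1 when 1 library was left out. In each case that member was Ctnnal1. All other alternatives for this comparison, and every alternative for MPP between genotypes and for the difference of effects, called 0 members. Counts over all genes depended more on the choices. In LT-HSC between genotypes, 1 gene was called in the stated fit, 0 to 203 when 1 library was left out (203 without WT LT-HSC 1) and 0 to 264 over all alternatives. In MPP between genotypes 5 were called, against 50 by DESeq2, 8 by limma voom and 0 to 4 when 1 library was left out. For WT MPP against WT LT-HSC, 3876 genes were called, against 6505 by limma voom.

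Replicate numbers are shared between groups, but in no comparison did the deviations of every same-numbered pair correlate above 0.1. Pairs of unlike genotype, which cannot come from 1 animal, had r from -0.29 to 0.066. In WT between populations r ran from -0.13 to 0.046. The main fits did not pair the libraries, as nothing stated says that the numbers pair them. These values cannot exclude a pairing between populations. In Ahr-KO between populations, r was 0.0281 to 0.253 for the 4 shared numbers, and 3 of the 4 correlated best with their own number, a hint from the data and not from the design. With the replicate block, 26 members were called in Ahr-KO and 25 in WT between populations (of 2056 and 1544 genes), and 0 in LT-HSC between genotypes, 0 in MPP between genotypes and 0 for the difference of effects. In LT-HSC between genotypes the block rests on the shared numbers 1 and 4 alone, with WT LT-HSC 1 among them. Only 109 of 16065 genes had an unadjusted p under 0.05 in that fit (edgeR), so its 0 members tell little. The WT block between populations rests on the numbers 1, 4 and 5. Ptpn21, which was not called in WT between populations, was at 0.14 ± 1.15 there with the block. Depth limits the members that averaged under 1 CPM in both MPP groups: Gprc5c, Cdh5, Neo1, Efna1, Rarb and Ocln.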

Other observations

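Markers of other lineages differed between the populations in both directions. Of 6 megakaryocyte and platelet genes, which LT-HSC are known to share in part, 5 were called lower in Ahr-KO MPP than in Ahr-KO LT-HSC and 4 lower in WT MPP than in WT LT-HSC (edgeR). Gp9, a platelet adhesion receptor subunit gene, had log2 fold changes of -1.80 ± 0.19 in Ahr-KO and -1.42 ± 0.19 in WT (SE; adjusted p 1.28e-06 and 1.74e-05). Of 7 neutrophil genes, 0 were called in Ahr-KO and 5 were called higher in WT MPP than in WT LT-HSC. Their sum was 146 to 750 CPM in Ahr-KO MPP, against 7.92 to 1335 CPM in Ahr-KO LT-HSC, and 376 to 687 CPM in WT MPP, against 6.14 to 89.1 CPM in WT LT-HSC. Of 6 monocyte genes, 0 were called in Ahr-KO and 2 were called higher in WT MPP, and of 5 T and NK cell genes, 1 was called higher and 1 lower in each genotype. Of 5 tested stromal genes, 2 were called lower in Ahr-KO MPP and 0 in WT MPP, and 0 of 5 erythroid genes were called in either genotype. These list calls were not repeated without WT LT-HSC 1 or Ahr-KO LT-HSC 2 and 3. The part of these cells in the members' levels was not tested. Of 7 immediate early genes, 6 were tested, and the growth factor response gene Egr1 was lower in MPP, with log2 fold changes of -2.88 ± 0.42 in Ahr-KO and -3.12 ± 0.42 in WT (adjusted p 4.54e-05 and 2.24e-05). The summed level of that list was 318 to 681 CPM in Ahr-KO LT-HSC and 473 to 1191 CPM in WT LT-HSC, and 0 of its 6 tested genes were called between these groups. Between genotypes in MPP, 1 gene of the lists was called: Pf4, a platelet chemokine, was lower in Ahr-KO MPP, at 50.4 ± 15.2 CPM, against 118 ± 15.3 CPM in WT MPP (SD, n = 5; log2 fold change -1.22 ± 0.18, adjusted p 0.0491, edgeR). No gene was called lower without any 1 of Ahr-KO MPP 1, 2, 3 or 4 or WT MPP 2, 3, 4 or 5, or with a replicate block, so the call was lost in each of these.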
